A study of Mus musculus with 64 samples.

Results

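The transgene effect in sedentary F hearts was read from 16 of the 64 heart libraries of the series. They comprise 8 libraries from mice with the cTnT-delta160E transgene (TG) and 8 from non-transgenic mice (nTG). All are C57BL/6J, labelled F and sedentary. The members are the libraries with these labels, and every gene of the deposited table was compared between them. The other 48 libraries come from M mice and from mice given 6 weeks of high-intensity interval training (HIIT), with 3 treadmill sessions of 31 minutes per week. Each library is labelled as a separate biological replicate of whole heart tissue. The age of the mice, the promoter that drives the transgene and its expression by cell type are not given in the sources used here.

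Cardiac troponin T, the product of Tnnt2, anchors the troponin complex to tropomyosin on the thin filament of the sarcomere. Calcium binding to troponin moves tropomyosin and lets myosin heads attach to actin. The transgene encodes a troponin T that lacks a single glutamate residue, a variant known from human hypertrophic cardiomyopathy. Hearts under mechanical stress are known to raise fetal and skeletal muscle isoforms and natriuretic peptides, to lower genes of mitochondrial fuel use and repolarizing potassium channels, and to lay down collagen. Lists for each of these programmes were therefore followed.

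The names of the gene columns disagreed with the markers of sex and genotype. By name, 8 of the 16 columns labelled sedentary F contradicted their labelled sex and 5 their genotype. Each label was instead matched, through its lncRNA column, to the gene column of highest correlation over 389 autosomal transcripts, without Tnnt2 or sex-linked genes. For the 16 libraries the best correlation was 0.605 to 0.84 and the next best at most 0.402, and after the match 0 of 16 contradicted either marker. Xist was then at 271.5 to 400 CPM, the count scaled to the library total, and 4 Y-linked genes summed to at most 1.94 CPM. The libraries held 34.6 to 53.4 M counts (M, megacounts), of which mitochondrially encoded genes took 15 to 17.7% in TG and 14.5 to 16.7% in nTG hearts. TG replicate 4 had 63 genes at 0 counts, against 10 to 21 in the other 15 libraries. Cardiomyocyte markers summed to 112786 CPM or more in every TG library and 102743 CPM or more in every nTG library.

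In sedentary F hearts the transgene was accompanied by many small differences and few large ones. Of 16913 genes, 739 (4.37%) differed at an adjusted p under 0.05 in edgeR's quasi-likelihood test, of which 268 (1.58%) were higher and 471 (2.78%) lower in TG. The median change among them was a log2 fold change of 0.33 for rising and -0.26 for falling genes. Of the 739, 119 changed by more than 1.5-fold, and 22 rising and 16 falling genes by more than 2-fold. The CPM of the 8 TG and 8 nTG libraries did not overlap at all for 88 genes (0.52% of those tested), and 84 of these passed the test, 39 higher and 45 lower in TG. The median over all genes was -0.0005, and 50.2% of genes were lower in TG. All CPM values are scaled by TMM, log2 fold changes are TG over nTG with their standard error, and adjusted p-values come from this edgeR fit.

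**Figure D1:**
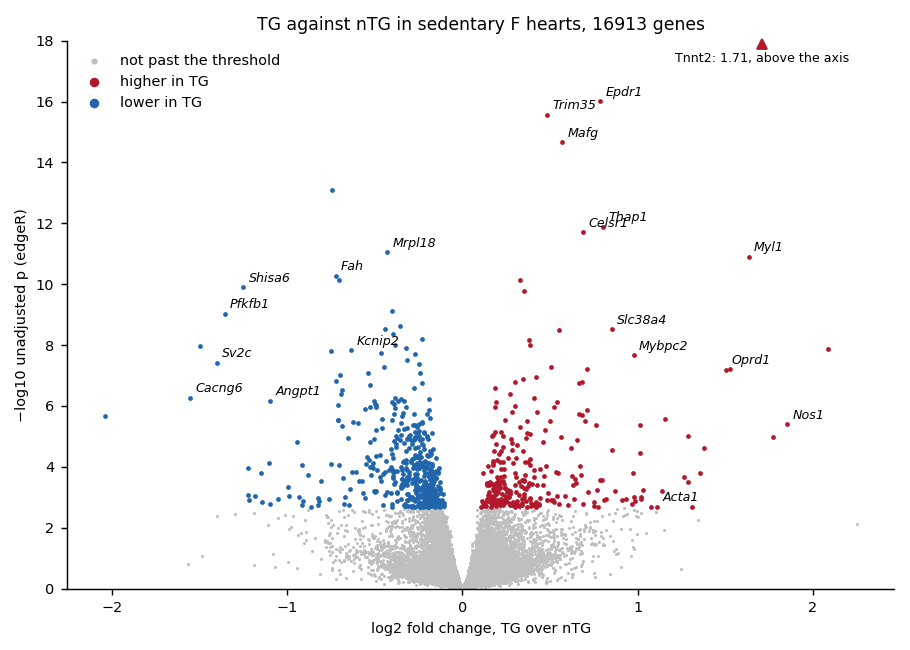
Each point is a gene, placed by its log2 fold change (TG over nTG, sedentary F, n = 8 and 8) and by the negative log10 of its unadjusted edgeR p. Coloured points passed the adjusted threshold (268 higher, 471 lower in TG), and Tnnt2 lies above the axis.

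Tnnt2 itself (ENSMUSG00000026414, chr1:135836354-135852260, GRCm38) had the smallest p of all genes. It stood at 7810 CPM in the lowest, 9759 in the median and 10475 in the highest TG library, against 2561, 2956 and 3117 CPM in nTG. Every TG library exceeded every nTG library by a wide margin, so the targeted gene followed the labels in all 16. The log2 fold change was 1.71 ± 0.07, or 3.27-fold (adjusted p = 3.29e-30). Counts per gene do not separate transgene reads from those of the mouse gene.

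Next by p among the rising genes were 3 with no overlap between the groups. Epdr1, an ependymin-related protein, rose from 14.3 to 20 CPM in nTG to 26.9 to 35.9 CPM in TG, by 0.79 ± 0.07 (adjusted p = 8.22e-13). Trim35, a member of the tripartite motif family of ubiquitin ligases, rose from 101 to 122 CPM to 136 to 173 CPM, by 0.48 ± 0.04 (adjusted p = 1.5e-12). Mafg, a small MAF transcription factor, rose from 42.4 to 56.3 CPM to 63.6 to 79.9 CPM, by 0.57 ± 0.05 (adjusted p = 9.06e-12). In each, the lowest TG library exceeded the highest nTG library. The same complete separation held for Thap1, a zinc-finger transcription factor (0.80 ± 0.09), Celsr1, a cadherin of planar cell polarity (0.69 ± 0.08), Mrtfb, a coactivator of serum response factor (0.33 ± 0.04), and Jak1, a kinase of cytokine receptors (0.35 ± 0.05). It held too for Slc38a4, an amino acid transporter (0.85 ± 0.12), and Tmem101 (0.38 ± 0.06), while for Cdh4, or R-cadherin (0.55 ± 0.08), 7 of 8 TG libraries lay above all nTG libraries. Exons of Mafg overlap those of Sirt7 on the same strand and exons of Jak1 overlap Raver2 on the other, so these values are uncertain where reads could be shared.

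Large rises among genes with a mean of at least 50 counts, besides those of Tnnt2 and Myl1, included 4 genes at low CPM. Nos1, the neuronal nitric oxide synthase, was at 2.64, 4.81 and 7.85 CPM (lowest, median, highest) in TG and 0.555, 0.987 and 3.47 CPM in nTG, a log2 fold change of 1.85 ± 0.37 (adjusted p = 0.000619). All but 1 TG library lay above every nTG library. Oprd1, the delta opioid receptor, was at 1.1, 1.53 and 2.55 CPM against 0.303, 0.579 and 0.831 CPM, with no overlap (1.51 ± 0.25, adjusted p = 2.67e-05). Vgll2, a cofactor of TEAD transcription factors known from skeletal muscle, was at 2.11, 6 and 6.7 CPM against 1.19, 2.01 and 3.42 CPM (1.38 ± 0.30, adjusted p = 0.0022). For Vgll2 a single TG library, replicate 7, fell within the nTG range. Tbx15, a T-box factor of limb and skeletal muscle development, rose by 1.36 ± 0.34 (adjusted p = 0.00883), with 6 of 8 TG libraries above all nTG libraries.

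Of the 15 genes of the list of skeletal muscle isoforms, 6 were in the table, and 2 rose and 0 fell. Among the 6, 4 had a higher and 2 a lower estimate in TG (median log2 fold change 0.70). Myl1 (chr1:66924295-66945404), the fast skeletal myosin light chain, stood at 30.7, 34.4 and 42.8 CPM in TG and 5.42, 11 and 22.7 CPM in nTG. The groups did not overlap, and the nTG maximum came from 1 library, replicate 1, with the other nTG libraries at 12.3 CPM or less. Its log2 fold change was 1.63 ± 0.20, or 3.1-fold (adjusted p = 2.37e-08). Mybpc2 (chr7:44501699-44524656), the fast skeletal myosin binding protein C, stood at 43.9, 54.2 and 75.9 CPM against 22.5, 26.7 and 34.7 CPM, again without overlap (0.98 ± 0.15, adjusted p = 1.09e-05). Casq1, the skeletal calsequestrin, gave 0.92 ± 0.29 and missed the threshold (adjusted p = 0.0503), which it passed without nTG replicate 4 (1.09, adjusted p = 0.0178). Myh1, Myh2, Myh4, Mylpf, Tnnt3, Tnnc2 and Actn3, which define skeletal muscle tissue, were not among the genes of the table.

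The promoters of Myl1, Mybpc2 and Acta1 (skeletal actin, a called member of the stretch list described next) are shown with that of Kcnip2, a falling potassium channel subunit described further on. Each is the RefSeq window of 250 bases before to 50 after the gene's start in GRCm38.p6, read 5′ to 3′ on the gene's strand, which is the minus strand for all 4. The RefSeq start can differ from the GENCODE span, and for Myl1 the window lies inside the span given above. Capitals mark the M-CAT core CATTCC, the motif known to be bound by TEAD factors, or TATAAA, on either strand.
Acta1, chr8:123894726-123895025: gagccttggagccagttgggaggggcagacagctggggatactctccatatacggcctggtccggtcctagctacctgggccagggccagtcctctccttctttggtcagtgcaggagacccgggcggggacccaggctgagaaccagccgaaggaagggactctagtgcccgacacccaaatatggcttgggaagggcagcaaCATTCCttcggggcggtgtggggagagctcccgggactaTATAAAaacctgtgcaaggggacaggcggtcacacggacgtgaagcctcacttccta
Myl1, chr1:66945007-66945306: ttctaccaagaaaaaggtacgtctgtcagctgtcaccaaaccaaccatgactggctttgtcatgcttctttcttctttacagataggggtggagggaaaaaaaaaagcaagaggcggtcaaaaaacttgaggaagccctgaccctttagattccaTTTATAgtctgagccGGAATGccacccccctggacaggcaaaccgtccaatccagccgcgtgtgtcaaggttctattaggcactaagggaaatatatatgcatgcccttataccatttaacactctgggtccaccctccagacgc
Mybpc2, chr7:44524620-44524919: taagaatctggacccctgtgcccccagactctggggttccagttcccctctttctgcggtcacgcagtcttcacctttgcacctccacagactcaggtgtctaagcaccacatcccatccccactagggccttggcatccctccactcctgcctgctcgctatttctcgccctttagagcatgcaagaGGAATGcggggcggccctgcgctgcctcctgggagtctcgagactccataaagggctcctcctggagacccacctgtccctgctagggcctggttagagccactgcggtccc
Kcnip2, chr19:45816014-45816313: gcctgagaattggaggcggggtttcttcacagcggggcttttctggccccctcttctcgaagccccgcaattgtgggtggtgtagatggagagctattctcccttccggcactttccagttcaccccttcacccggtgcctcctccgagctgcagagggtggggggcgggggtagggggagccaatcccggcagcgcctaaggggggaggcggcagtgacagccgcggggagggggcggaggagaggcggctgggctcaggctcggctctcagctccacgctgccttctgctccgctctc
The M-CAT core lay in the windows of Acta1 (first base at -46 from the start, plus strand), Myl1 (-80, minus strand) and Mybpc2 (-62, minus strand), and not in that of Kcnip2. It occurs in 14.7% of 32851 RefSeq promoters of the same length. TATAAA, in the windows of Acta1 and Myl1, occurs in 13.6% of them. AGATAA (11.2% of promoters) was searched on both strands and was in none of the 4 windows. For MEF2 sites and the CArG box, which occur in many spellings, only single fixed strings were searched, so nothing is said here of their presence. The letters are a description of the sequence and show no binding.

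Of the 17 measured genes of the stretch and hypertrophy response, 3 rose and 1 fell (median 0.23), and several defining members had wide spread. The rising members numbered 1 in 9 of the 16 fits without a library, 4 without nTG replicate 1, 6 when only the 16 libraries were fitted and 7 with voom. Acta1 was at 200, 343 and 717 CPM in TG against 88.2, 158 and 324 CPM in nTG. Only 4 of 8 TG libraries lay above all nTG libraries, and the log2 fold change of 1.11 ± 0.35 was close to the threshold (adjusted p = 0.0477). With single libraries omitted, the call was kept in 5 of 16 fits. Nmrk2, a nicotinamide riboside kinase of striated muscle, separated fully, at 13.5, 17.7 and 20.1 CPM against 8.03, 10.2 and 12.7 CPM (0.70 ± 0.14, adjusted p = 0.00051). Its exons overlap the antisense gene Atcayos. Synpo2l, a Z-disc protein, rose by 0.38 ± 0.11 (adjusted p = 0.0341), a call kept in 6 of those 16 fits. Fhl2, a LIM protein of the sarcomere and nucleus, fell by 0.30 ± 0.07 on the log2 scale (adjusted p = 0.00228). That call was kept in all 16 fits without a library and lost when only the 16 libraries were fitted. Myh7, the slow myosin heavy chain, gave 0.96 ± 0.36 (adjusted p = 0.131), and Ankrd1, a stretch-sensing ankyrin repeat protein, gave 0.44 ± 0.19 (adjusted p = 0.201). With voom both passed, Myh7 at 1.17 (adjusted p = 0.0239) and Ankrd1 at 0.59 (adjusted p = 0.0316).

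Natriuretic peptide genes did not pass edgeR's test, and Nppa passed with voom (1.61, adjusted p = 0.00527). Nppa was at 33, 131 and 204 CPM in TG and 16.1, 61 and 128 CPM in nTG, so the groups overlapped widely (1.15 ± 0.45, adjusted p = 0.14). Nppb gave 0.15 ± 0.25 (adjusted p = 0.839). Corin, the protease that activates the atrial peptide, was the one of 8 measured list members to pass, and it fell by 0.32 ± 0.08 (adjusted p = 0.0112). Its call was kept in all 16 fits without a library and lost when only the 16 libraries were fitted. Markers of atrial myocardium were higher in TG by estimate in 8 of 9 cases, with a median of 0.21 (0.70 without nTG replicate 4) and 0 called by edgeR. Summed, they were at 161, 289 and 472 CPM in TG and 118, 188 and 453 CPM in nTG, where replicate 4 stood apart from the other nTG libraries at 221 CPM or less. Those 7 nTG libraries lay below 7 of the 8 TG libraries. Without that library Nppa gave 1.42 (adjusted p = 0.0558). The part of atrial tissue in these values was not tested.

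**Figure D2:**
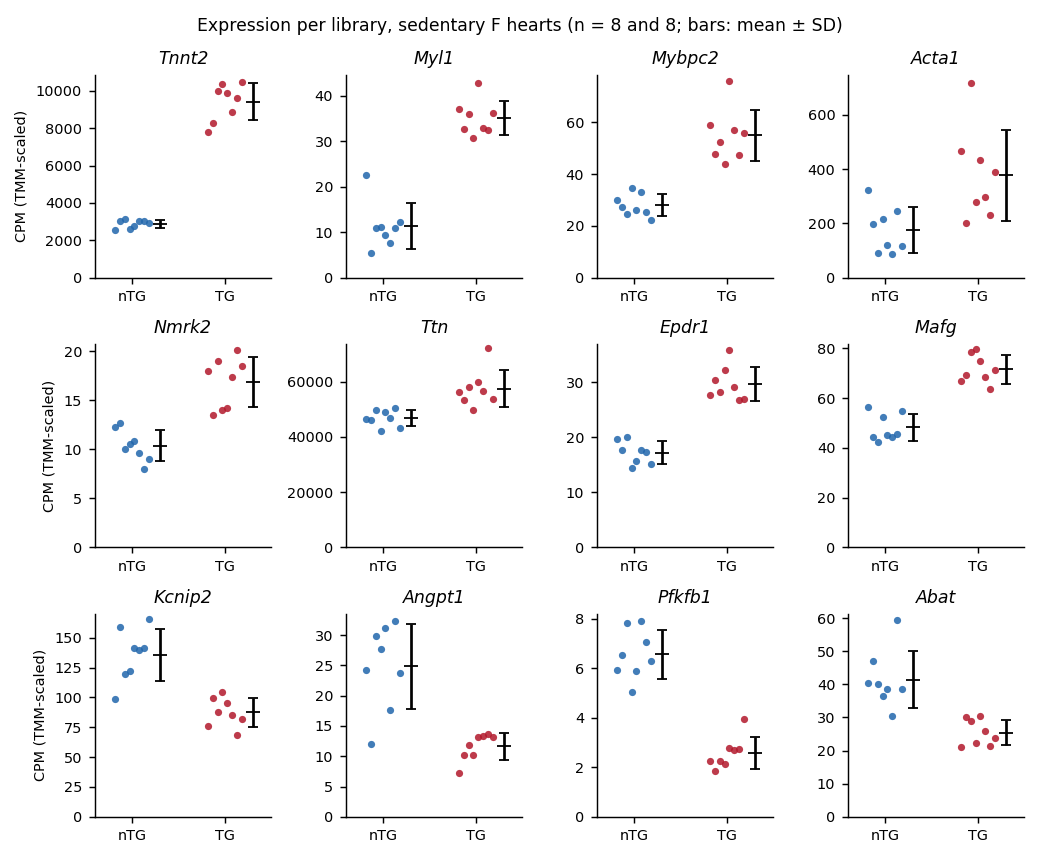
CPM (TMM-scaled) of 12 genes in each of the 8 nTG and 8 TG sedentary F libraries, with the mean and SD beside the points. Tnnt2, Myl1, Mybpc2, Nmrk2, Epdr1, Mafg and Pfkfb1 do not overlap between groups, while Acta1 and Angpt1 do.

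Working sarcomere genes moved little. Of 12 thin filament genes 1 rose, Tnnt2 itself, and 2 fell. Tpm1, alpha-tropomyosin, was at 3784, 4166 and 4374 CPM in TG and 4364, 4689 and 5097 CPM in nTG, with 7 of 8 TG libraries below all nTG libraries (-0.20 ± 0.04, adjusted p = 0.00125). Tnnc1, troponin C, fell by 0.14 ± 0.04 (adjusted p = 0.0459), a call kept in 3 of 16 fits without 1 library. Of 20 genes of the thick filament, Z-disc and costamere 1 rose and 3 fell. Ttn, titin, rose by 0.30 ± 0.05 (adjusted p = 0.000228), with 7 of 8 TG libraries above all nTG libraries. Mybpc3, cardiac myosin binding protein C, fell by 0.18 ± 0.05, a call kept in 10 of 16 fits without a library and lost when only the 16 libraries were fitted. Mylk3, cardiac myosin light chain kinase, fell by 0.27 ± 0.06, and Myocd, the cofactor myocardin, by 0.28 ± 0.07 on the log2 scale.

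Calcium handling and ion channel genes that passed were mostly lower in TG, as were 471 of the 739 genes called among all genes. Over all 16913 genes, 2.78% were called lower and 1.58% higher. In the sarcoplasmic reticulum list 0 of 16 rose and 2 fell. Hrc, a histidine-rich calcium binding protein, was at 545, 609 and 718 CPM against 664, 767 and 870 CPM (-0.32 ± 0.06, adjusted p = 0.000753). The calcium pump Atp2a2 fell by 0.18 ± 0.06 (adjusted p = 0.0444) and kept its call in only 2 of 16 fits without 1 library. Among 19 potassium channel genes 0 rose and 6 fell (median -0.14). Kcnip2 (chr19:45791839-45816061), the subunit that sets the density of the fast transient outward current, was at 68.8, 86.5 and 105 CPM in TG and 98.6, 140 and 165 CPM in nTG. In 6 of 8 TG libraries it lay below all nTG libraries (-0.64 ± 0.10, adjusted p = 8.65e-06). Kcnv2, a modifying subunit, fell by 0.51 ± 0.12, Kcnj3, an inward rectifier of the acetylcholine-gated current, by 0.32 ± 0.08, and Kcnh2, of the rapid delayed rectifier, by 0.23 ± 0.07. Kcnj11 (-0.18 ± 0.05) and Abcc9 (-0.21 ± 0.06), which together form ATP-sensitive channels, also passed. Kcnh2, Kcnj11 and Abcc9 each kept the call in 9 of 16 fits without a library. Kcnh2 and Kcnj11 lost it when only the 16 libraries were fitted. The falling members numbered 3 without TG replicate 6 or nTG replicate 6 and 7 without TG replicate 4. In the list of sodium and calcium channels and connexins 1 of 14 rose and 0 fell. It had 2 rising genes without nTG replicate 4, 2 falling without nTG replicate 5, and 1 falling without TG replicate 1 or 4 and with voom. Cacng6, a calcium channel gamma subunit, had the largest fall of all genes named (-1.55 ± 0.28, adjusted p = 0.000154), from a median of 2.19 CPM in nTG to 0.735 CPM in TG. Of 18 adrenergic and cAMP genes 1 fell, the receptor Adra1a (-0.35 ± 0.10, adjusted p = 0.0196), and 0 rose.

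Falling genes with small p-values had varied roles. Mrpl18, a protein of the mitochondrial ribosome, was at 24.2, 29 and 32.3 CPM in TG and 34.2, 38.6 and 44.5 CPM in nTG (-0.43 ± 0.05, adjusted p = 1.84e-08). Fah, the last enzyme of tyrosine breakdown, was at 6.74, 8.3 and 10.4 CPM against 10.7, 14 and 18.1 CPM (-0.72 ± 0.09, adjusted p = 8.93e-08). Abat, which breaks down the transmitter GABA, was at 21.1, 24.8 and 30.3 CPM against 30.5, 39.3 and 59.5 CPM (-0.70 ± 0.09, adjusted p = 1.05e-07). The groups did not overlap for any of these 3 genes. Exons of Mrpl18 overlap those of Tcp1 on the other strand, as do those of Pfkfb1 with Apex2 and of Acad11 with Ackr4. Pfkfb1, a regulator of glycolysis, was at 1.85, 2.48 and 3.96 CPM against 5.05, 6.42 and 7.9 CPM, or 2.56-fold lower in TG (adjusted p = 9.73e-07). Shisa6, an auxiliary protein of glutamate receptors, was 2.38-fold lower without overlap (adjusted p = 1.67e-07), and Sv2c, a synaptic vesicle protein, fell by 1.40 ± 0.22 on the log2 scale. Smaller falls were seen for Miga1, which acts in mitochondrial fusion (-0.36 ± 0.05), Acad11, an acyl-CoA dehydrogenase (-0.40 ± 0.06), and Gsto1, a glutathione transferase (-0.32 ± 0.05). They were seen too for Limch1, an actomyosin regulator (-0.23 ± 0.03), Pcp4l1 (-0.44 ± 0.06), and Ttc7, a scaffold of a lipid kinase (-0.39 ± 0.06).

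Most genes of mitochondrial fuel use had slightly lower estimates in TG, and a minority passed the test. Beside them, 7 of 10 cardiomyocyte markers had a lower estimate (median -0.08), with Tnnc1 falling and Ttn rising, and all 10 fibroblast markers a higher one (median 0.24). The summed cardiomyocyte markers were not lower, at 112786, 115687 and 138011 CPM (lowest, median, highest) in TG. In nTG they were at 102743, 112497 and 119105 CPM. The part of cell makeup in the mitochondrial values was not tested. Of 36 nuclear genes of respiratory complex I, 35 had a lower estimate in TG (median -0.13), 7 fell and 1 rose. Ndufa10, an accessory subunit, was at 311, 353 and 378 CPM against 330, 398 and 449 CPM (-0.18 ± 0.05, adjusted p = 0.0216). The one that rose, Ndufb4, another accessory subunit, was at 46, 54.4 and 61.3 CPM against 31.9, 41.6 and 50 CPM (0.41 ± 0.07, adjusted p = 0.000158). Of 38 genes of complexes III and IV and ATP synthase, 37 had a lower estimate (median -0.12), 4 fell and 0 rose. Cox7a1, the heart and muscle form of a cytochrome oxidase subunit, fell by 0.30 ± 0.07 (adjusted p = 0.0048), and Cox5b by 0.23 ± 0.06. The 13 mitochondrially encoded mRNAs gave 0 calls by edgeR in either direction, 12 with a higher estimate (median 0.08; 8 higher and median 0.047 without TG replicate 4, 8 and 0.034 with voom), and 0 had an unadjusted p under 0.05.

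Upstream of the respiratory chain, 7 of 29 genes of pyruvate oxidation and the TCA cycle fell and 0 rose (median -0.11). Pdp1, a phosphatase that activates pyruvate dehydrogenase, was at 25.1, 28 and 30.2 CPM against 31.2, 33.9 and 35.7 CPM, with no overlap (-0.27 ± 0.06, adjusted p = 0.00225). Its partner Pdp2 fell by 0.38 ± 0.10, and citrate synthase, Cs, by 0.16 ± 0.05. In breakdown of branched-chain amino acids 7 of 21 genes fell and 0 rose (median -0.14). Ivd, isovaleryl-CoA dehydrogenase, was at 246, 267 and 316 CPM against 286, 347 and 382 CPM (-0.35 ± 0.06, adjusted p = 0.000167). Auh, an enzyme of leucine breakdown, fell by 0.23 ± 0.05 with every TG library below every nTG library. Ppm1k, which activates the branched-chain ketoacid dehydrogenase, fell by 0.35 ± 0.09. Fatty acid uptake and oxidation gave 3 of 32 falling and 0 rising, with 25 estimates lower and 7 higher (median -0.10), with Acadm, the medium-chain acyl-CoA dehydrogenase, down by 0.26 ± 0.06 (adjusted p = 0.0074). In glucose metabolism 3 of 26 fell, Pfkfb1, Pfkm and Slc16a1, and 1 rose, the hexokinase Hk1 (0.20 ± 0.05). The falling glucose genes numbered 5 without TG replicate 4 and 6 with voom, and Slc16a1 lost its call when only the 16 libraries were fitted. These list counts moved with single libraries. In complex I the falling genes numbered 1 without nTG replicate 7, 2 without TG replicate 4 and 13 without nTG replicate 4. In complexes III and IV and ATP synthase they numbered 2 in 10 of the 16 fits without a library and 9 without TG replicate 7 or nTG replicate 4. In the TCA list they numbered 3 without TG replicate 8 or nTG replicate 6 and 9 without nTG replicate 1 or 4. Fatty acid genes gave 1 falling without any 1 of TG replicates 4 and 8 and nTG replicates 7 and 8. With voom the 3 lists of the respiratory chain and TCA cycle gave 15, 12 and 16 falling genes. In the fits without nTG replicate 4, without TG replicate 4 and with voom, 35 of 36 complex I estimates stayed lower in TG.

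**Figure D3:**
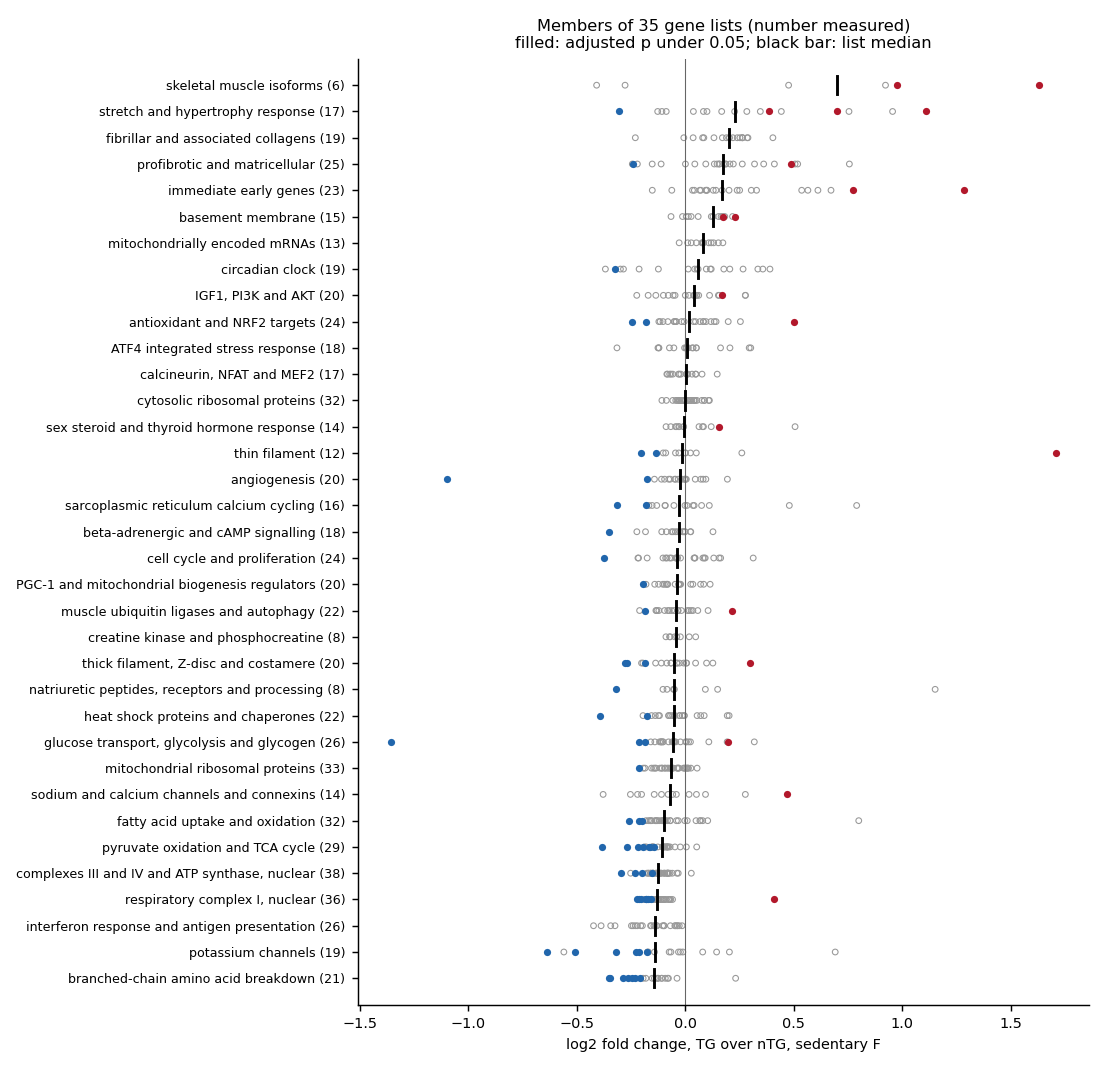
Log2 fold change (TG over nTG, sedentary F) of every measured member of 35 gene lists, with filled points for members past the adjusted threshold and a black bar for the list median. Lists are ordered by median, from branched-chain amino acid breakdown (-0.14) at the bottom to skeletal muscle isoforms (0.70) at the top.

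Of 19 fibrillar and associated collagens, 17 had a higher estimate in TG (median 0.20) and 0 rose or fell by edgeR, while 8 had an unadjusted p under 0.05. Over all genes 2767 of 16913 were under that unadjusted p. Col1a1 was at 172, 253 and 284 CPM in TG and 149, 184 and 360 CPM in nTG (0.25 ± 0.16, adjusted p = 0.448). Its highest value in any of the 16 libraries came from the nTG group. Without nTG replicate 4, 4 of the 19 rose, and with voom and sample weights 10 did. Of 25 profibrotic and matricellular genes 1 rose, the gelatinase Mmp2 (0.49 ± 0.14, adjusted p = 0.0248), and 1 fell, Fgf2 (-0.24 ± 0.07), whose exons overlap Nudt6. Without nTG replicate 4, 4 of them rose and 0 fell, while Mmp2 kept its call in 11 of 16 fits without a library and Fgf2 in 3. In the basement membrane list 2 of 15 rose, Col4a5 (0.23 ± 0.05) and the laminin chain Lamc1 (0.17 ± 0.05). Lamc1 kept its call in 14 of 16 fits without a library and lost it when only the 16 libraries were fitted. The rising genes of this list numbered 1 to 3 in the fits without a library and 5 with voom. Fibroblast markers moved alongside, all 10 with a higher estimate in TG and 1 past the threshold, Lum (0.44 ± 0.13, kept in 10 of 16 fits without a library). In those fits 0 to 3 of the markers rose, with 3 without nTG replicate 4, and with voom 7 rose. Summed, the 10 markers were at 2109, 2754 and 3062 CPM in TG and 1936, 2168 and 2877 CPM in nTG, where replicate 4 was again the highest. In bulk tissue, more cells of a type and more RNA per cell cannot be told apart, and the part of fibroblast number in the collagen values was not tested.

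No gene of the macrophage and interferon lists passed the edgeR test in sedentary F hearts. Macrophage markers summed to 286, 355 and 432 CPM in TG and 276, 303 and 408 CPM in nTG, and 0 of 10 were called by edgeR although all 10 had a higher estimate (median 0.13). Of 26 genes of interferon response and antigen presentation, all 26 had a lower estimate (median -0.14) and 0 were called. An unadjusted p under 0.05 was found for 2 of them, a smaller share than the 2767 of 16913 over all genes. The class II genes H2-Aa (-0.42, unadjusted p = 0.0298) and Cd74 (-0.34, unadjusted p = 0.0475) were those 2. The common sign did not hold in every fit: 22 of 26 were lower without TG replicate 7, 24 without nTG replicate 4 and 15 with voom.

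In stress and signalling lists 0 to 3 members of each were called, beside 739 of 16913 (4.37%) over all genes. Each of these lists with 2 or 3 called members had a larger called share than all genes. The lists were not tested as sets. Of 23 immediate early genes 2 rose and 21 had a higher estimate (median 0.17). Nr4a1, an orphan nuclear receptor, was at 6.57, 14 and 71.6 CPM in TG against 4.77, 9.27 and 17.4 CPM in nTG (1.28 ± 0.34, adjusted p = 0.0145), but the call rested on TG replicate 6. Without that library Nr4a1 gave 0.79 (adjusted p = 0.164), and with voom 0.84 (adjusted p = 0.153). It also missed the threshold when only the F libraries or only the 16 libraries were fitted. Egr3, a zinc-finger factor, rose by 0.77 ± 0.24 (adjusted p = 0.0473), kept in 4 of 16 fits without 1 library. Among 22 chaperones 2 fell, Hspa5 of the endoplasmic reticulum (-0.39 ± 0.08, adjusted p = 0.00143) and the small heat shock protein Cryab (-0.18 ± 0.04). Of 24 antioxidant genes Hmox1, heme oxygenase, rose (0.50 ± 0.15) and Gsta4 and Prdx5 fell. In the 16 fits without a library Hmox1 kept its call in 7, Gsta4 in 11 and Prdx5 in 15, and all 3 calls were lost when only the 16 libraries were fitted. Angpt1, a vessel-stabilizing ligand, had the largest fall of the angiogenesis list, at 7.25, 12.5 and 13.7 CPM against 12, 26 and 32.3 CPM (-1.10 ± 0.20, adjusted p = 0.000179). Flt1, a VEGF receptor, fell by 0.18 ± 0.04, and the other 18 genes of that list did not pass. The calcineurin (17 genes), creatine kinase (8), ATF4 (18) and cytosolic ribosomal protein (32) lists had 0 members called by edgeR, with 2, 0, 2 and 2 members at an unadjusted p under 0.05. Each of these shares was below that over all genes, 2767 of 16913. Single members passed in the lists of the cell cycle (Cenpa fell), PGC-1 (Esrrb fell), mitochondrial ribosomal proteins (Mrpl34 fell), IGF1 signalling (Deptor rose) and hormone response (Nr3c1 rose). Of these, Esrrb (adjusted p = 0.0497) kept its call in 4 of 16 fits without a library, Deptor in 10, and Nr3c1 and Mrpl34 in 15. All of them but Cenpa lost the call when only the 16 libraries were fitted. In the mitochondrial ribosomal list the falling genes numbered 0 without nTG replicate 7, 3 without TG replicate 7, 5 without nTG replicate 4 and 4 with voom. In the list of ubiquitin ligases and autophagy Lamp2 rose and Map1lc3b fell. Both calls were lost when only the 16 libraries were fitted, and that of Lamp2 also without TG replicate 7.

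The same comparison in sedentary M hearts (9 TG, 7 nTG) and in trained F hearts (6 TG, 10 nTG) shares no library with sedentary F hearts. It gave more calls, 3488 genes (20.6%) in sedentary M and 2503 (14.8%) in trained F. Of the 739 genes of sedentary F hearts, 726 (98.2%) had the same sign in sedentary M and 570 (77.1%) were also called there, which is 16.3% of the M list. In trained F hearts 723 (97.8%) had the same sign and 539 (72.9%) were also called, or 21.5% of that list. No gene called in sedentary F was called in the opposite direction in either. Over all genes the share with the same sign was 68.8% and 68.9%. Called in all 3 comparisons with 1 sign were 478 genes, 132 higher and 346 lower in TG. Taken in each gene's direction in sedentary F hearts, the median change of the 739 genes was 0.27 in sedentary F, 0.28 in sedentary M and 0.27 in trained F hearts. The first comparison was used to choose them.

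**Figure D4:**
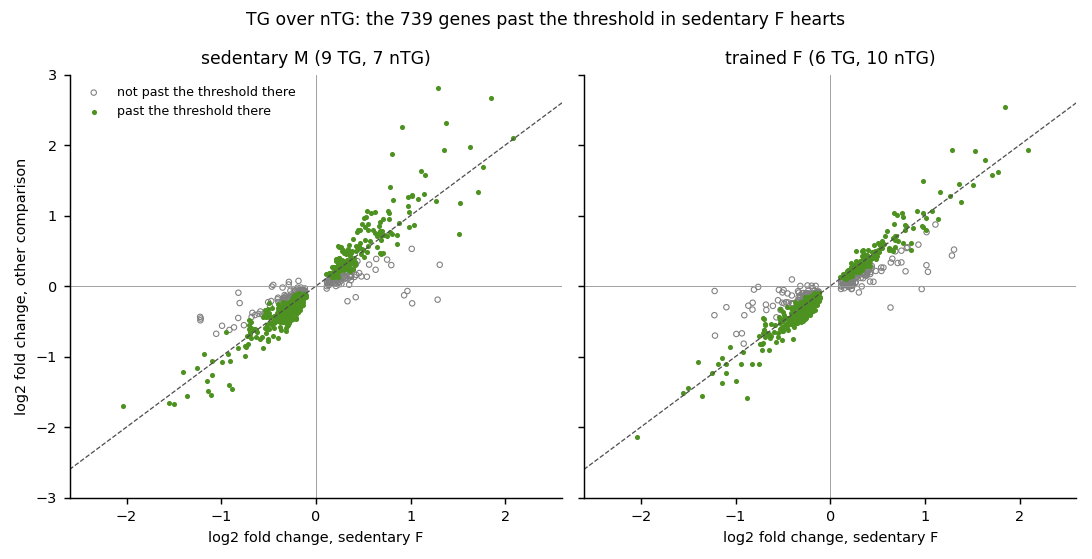
Log2 fold changes (TG over nTG) of the 739 genes called in sedentary F hearts, against those in sedentary M hearts (left) and in trained F hearts (right), with the line of equal change dashed. Filled points passed the threshold in the other comparison as well (570 and 539 genes), and few points lie across 0.

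Read the other way, the genes called in sedentary M hearts had smaller estimates in sedentary F hearts. Of those 3488 genes, 92.4% had the same sign in sedentary F. Taken in the direction of the comparison that chose them, their median change was 0.13 in sedentary F against 0.28 in M. For the 2503 genes of trained F hearts the share was 91.8% and the medians 0.13 and 0.26. Replicate spread was wider in sedentary F hearts, with a median coefficient of variation per gene of 11.2% in TG and 9.86% in nTG, against 8.83 to 9.58% in the groups of the other comparisons. Tested directly, the difference between the F and M effects passed for 0 genes (0%) by edgeR, with a smallest adjusted p of 0.21 and 1471 genes (8.7%) at an unadjusted p under 0.05. DESeq2 called 1 gene, Frmpd3, and voom 0. The difference between sedentary and trained F hearts passed for 0 genes (0%) by edgeR, DESeq2 and voom, with a smallest adjusted p of 0.575 and 1093 genes at an unadjusted p under 0.05 by edgeR.

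List medians differed between the comparisons, while no single gene passed the edgeR test of the difference. All 10 macrophage markers rose in sedentary M hearts (median 0.65) and 8 in trained F (0.40), against 0 in sedentary F (0.13). The F effect was below the M effect for all 10 markers, 9 of them at an unadjusted p under 0.05, with a smallest adjusted p of 0.377. C1qb, a complement component, gave 0.10 in sedentary F and 0.80 in sedentary M. Complex I genes fell in 35 of 36 cases in sedentary M (median -0.27) and 20 in trained F (-0.17), and the estimate in F was above that in M for all 36, 8 of them at an unadjusted p under 0.05 (smallest adjusted p = 0.508). Fatty acid genes fell in 24 of 32 cases both in sedentary M (-0.27) and in trained F (-0.25), and 14 of 32 differed between F and M at an unadjusted p under 0.05 (smallest adjusted p = 0.419). Of 19 collagens 14 rose in sedentary M (0.43) and 7 in trained F (0.31). The interferon list had a median of 0.18 in sedentary M and 0.25 in trained F, on the other side of 0 from sedentary F, with 1 gene called in each. Potassium channels had medians of -0.14 in sedentary F, -0.16 in sedentary M and -0.24 in trained F, and skeletal muscle isoforms of 0.70, 0.66 and 0.86.

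**Figure D5:**
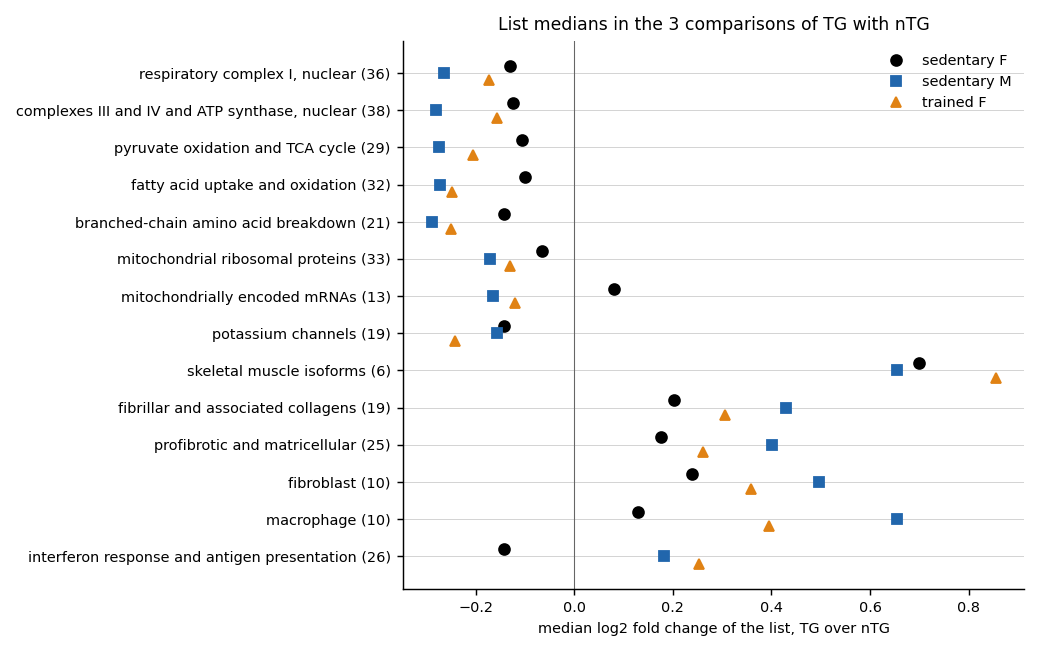
Median log2 fold change (TG over nTG) of 14 lists in sedentary F (circles), sedentary M (squares) and trained F hearts (triangles), with the number of measured genes in brackets. Mitochondrial lists lie nearest 0 in sedentary F, and the interferon list and the mitochondrially encoded mRNAs have medians on the other side of 0 in sedentary F, with signs of single genes that varied between fits.

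Single genes set the 3 comparisons side by side. Myl1 changed by 1.63 in sedentary F, 1.97 in sedentary M and 1.79 in trained F hearts. Pfkfb1 changed by -1.36, -1.56 and -1.56, and Epdr1 by 0.79, 0.77 and 0.87. Tnnt2 changed by 1.71, 1.34 and 1.57, and its difference between F and M of 0.37 ± 0.09 had an unadjusted p of 0.000177 and an adjusted p of 0.377 in edgeR. Nr4a1, whose call was lost without TG replicate 6 (0.79, adjusted p = 0.164), was at 1.28 in sedentary F, -0.19 in sedentary M and 0.43 in trained F, and its difference between sexes did not pass (edgeR adjusted p = 0.398). It is among 55 of the 739 genes with an unadjusted p over 0.05 in both other comparisons, a group that was chosen for that pattern. Msmo1, an enzyme of cholesterol synthesis, is another, at -0.33 in sedentary F, -0.13 in sedentary M and -0.09 in trained F.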

How the data were processed

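Total RNA of mouse hearts was depleted of ribosomal RNA and sequenced, per the labels. Reads were handled with cutadapt 2.3, FastQC 0.11.8, MultiQC 1.7, STAR 2.7.8a and RSEM 1.3.3 on GRCm38, per the submitters' processing notes, and the use of strand in counting is not stated there. The authors deposited raw counts of 16913 genes and expected counts of 3787 lncRNA transcripts, the latter used only to match columns (Pearson's r of centred log2 CPM, pseudocount 0.5, transcripts with a mean of at least 20 counts). Symbols and positions came from GENCODE M21, which named 16887 genes. The lowest mean count in the gene table was 10.48, and edgeR's low-count filter kept all genes.

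Counts were tested with edgeR 4.0.16 (TMM, quasi-likelihood F test, a mean for each of 8 groups over 64 libraries, two-sided, Benjamini-Hochberg adjustment over all genes, threshold 0.05). Sex and training differences were interaction contrasts of that fit. It was tested on simulated data. Alternatives used DESeq2 1.42.0 and limma 3.58.1 voom, other scalings and filters, fewer libraries, blocks, and each library left out in turn. Named genes are the 12 smallest p-values per direction and the 6 largest changes per direction (mean of at least 50 counts, no clone names), plus Tnnt2 and list members. Some genes picked by this rule are not reported here. The members and lists were chosen with earlier results of these data known. The 16 libraries held 34.6 to 53.4 M counts. Standard errors came from the log2 fold change and its F statistic, with replicate spread estimated over all 64 libraries and 8 groups. They do not give the spread of the 16 libraries alone, which gave 367 calls when fitted by themselves. Promoter windows came from RefSeq, GRCm38.p6.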

Additional observations from a re-analysis of the deposited data

Results flagged for a closer look

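Single libraries stood apart from the other 7 of their group in 12 of 92 groups of values examined, where about 4.6 are expected by chance at this threshold. TG replicate 4 was high for the number of genes at 0 counts (63, others 15 to 21). Within TG, replicate 7 was low for the summed endothelial markers (1161 CPM, others 1243 to 1294), for the summed lymphocyte and neutrophil markers (11.2 CPM, others 13.7 to 15.9) and for Vgll2 (2.11 CPM, others 5.07 to 6.7). TG replicate 2 was high for the summed red cell markers (1178 CPM, others 317 to 695), TG replicate 8 for Pfkfb1 (3.96 CPM, others 1.85 to 2.76) and TG replicate 1 for Cacng6 (2.25 CPM, others 0.443 to 0.95). Within nTG, replicate 4 was high for the summed atrial markers (452.9 CPM, others 118 to 221) and for the summed valve and cartilage markers (127 CPM, others 17.7 to 66). High values were also found for Myl1 in nTG replicate 1 (22.7 CPM, others 5.42 to 12.3), Ttc7 in nTG replicate 8 (47.4 CPM, others 38.8 to 41.8) and Cacng6 in nTG replicate 3 (5.39 CPM, others 1.42 to 3.25). On the first principal component of the 16 libraries (16.3% of variance), TG replicate 7 was the lowest at -24.2 and TG replicate 4 the highest at 23.5.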

How the results depend on the processing

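The 739 calls became 1269 with limma voom and sample weights (672 shared), 367 when only the 16 sedentary F libraries were fitted (346 shared) and 0 with gene columns taken by name, where 877 genes had an unadjusted p under 0.05. Taken by name, the sedentary M and trained F comparisons also gave 0 calls by edgeR (1319 and 455 at an unadjusted p under 0.05). Leaving out each library in turn gave 522 calls (without nTG replicate 7) to 978 (without nTG replicate 4), and 0 calls in each of 32 such fits for the sex difference and for the training difference. DESeq2 and the replicate block each called 1 gene in the sex difference, Frmpd3. Replicate numbers did not pair the libraries: deviations of same-numbered TG and nTG libraries correlated at -0.109 to 0.135, and 0 libraries matched their own number best. With the replicate number as a block 742 genes were called (689 shared), and 338 when the block was fitted on the 16 libraries alone. DESeq2 (851), median-of-ratios size factors (708), robust fitting (727), no filter (739), a mean of at least 50 counts (786), library number as covariate (768), only F libraries (653) and leaving out the library with most blood RNA (644) stayed within 1.5 times the main count. The 30 genes picked by smallest p or largest change, Tnnt2 among them, kept call and direction in all 480 single-library fits. They also kept them in all 330 values of the other alternatives on matched columns, and all 30 lost the call by name. These genes were picked as the most extreme in the same libraries. Their stability therefore does not extend to called list members outside the 30, such as Atp2a2, kept in 2 of 16 fits without a library. Depth limits genes near 1 CPM, such as Oprd1, Tbx15 and Cacng6, more than the others.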
